A study of Mus musculus with 4 samples.

Results

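The Tie receptors, the angiopoietins and the phosphatase Ptprb form a signalling system of blood vessels, and its 5 genes are described here out of 31017 gene symbols counted. They were chosen by name, as Tek, Tie1, Angpt1, Angpt2 and Ptprb, and each matched 1 gene entry in all 4 libraries. The cells were vessel progenitor cells sorted from C57BL/6 mice, with 1 droplet single-cell RNA library for each of P1 of fat, P2 of fat, P1 of lung and P2 of lung. All cells were gated as CD45- Ter119- Tie2+, so every library had passed a gate on the protein that Tek encodes. P1 was in addition PDGFRa- CD31+ CD105high Sca1low and P2 was PDGFRa+ CD31- CD105low Sca1high. How many animals were used, and their age and sex, is not given in the sources used here. With 1 library per group there was no test, and every difference below is a difference between libraries.

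Tek encodes Tie2, a receptor tyrosine kinase of endothelial cells, and Tie1 encodes a related receptor that pairs with it. Angpt1 encodes angiopoietin-1, the agonist of Tie2, which cells around the vessel usually supply, and Angpt2 encodes angiopoietin-2, which activated endothelium releases and which can act as agonist or antagonist. Ptprb encodes VE-PTP, an endothelial receptor phosphatase that removes phosphate from Tie2 and binds VE-cadherin. In this system the receptor is usually held by the endothelium and the agonist ligand by the mesenchyme next to it, so the cells that hold each gene matter as much as its level.

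On GRCm38 (GENCODE vM21) Tek (ENSMUSG00000006386) lies on the plus strand of chromosome 4 from 94739289 to 94874976 and Tie1 (ENSMUSG00000033191) on its minus strand from 118471191 to 118490061. Angpt1 (ENSMUSG00000022309) lies on chromosome 15 from 42424723 to 42676977, and the antisense gene Gm17473 overlaps it. Angpt2 (ENSMUSG00000031465) lies on chromosome 8 from 18690263 to 18741562, where Mcph1 overlaps it on the other strand. Ptprb (ENSMUSG00000020154) lies on chromosome 10 from 116275523 to 116389535 and overlaps 2 small entries on its own strand, Gm47625 and Gm26495. Whether the counting used strand is not given in the sources used here. Whether reads of Gm17473 were counted for Angpt1, or reads of Mcph1 for Angpt2, was not tested.

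The promoters of both receptors are shown because Tek and Tie1 differed in the cells that held them, Tek being present in fibroblast-like cells where Tie1 was not found. The windows run from 250 bases before to 50 bases after the start in RefSeq on GRCm38.p6, at chr4:94739039-94739338 on the plus strand for Tek and chr4:118489800-118490099 on the minus strand for Tie1. They are printed 5′ to 3′, and capitals mark GGAA, the core that ETS factors recognise, on either strand (TTCC as printed). They also mark the string AGATAA, which GATA factors bind.
Tek: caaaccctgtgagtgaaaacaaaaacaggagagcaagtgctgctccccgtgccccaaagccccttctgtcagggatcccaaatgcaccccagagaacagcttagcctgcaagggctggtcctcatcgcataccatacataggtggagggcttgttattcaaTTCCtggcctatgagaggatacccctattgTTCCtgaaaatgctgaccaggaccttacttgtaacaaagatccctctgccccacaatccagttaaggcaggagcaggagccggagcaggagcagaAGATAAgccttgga
Tie1: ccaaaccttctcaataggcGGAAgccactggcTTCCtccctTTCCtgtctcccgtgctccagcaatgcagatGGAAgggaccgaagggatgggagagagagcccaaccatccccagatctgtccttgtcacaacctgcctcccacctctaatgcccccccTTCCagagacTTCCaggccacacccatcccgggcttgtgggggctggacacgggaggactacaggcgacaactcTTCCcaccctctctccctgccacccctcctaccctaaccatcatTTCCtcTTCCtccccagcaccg
The Tek window held 2 GGAA matches and 1 AGATAA match, which starts at base 287 of the printed run. The Tie1 window held 9 GGAA matches and no match to the GATA string. The ETS core occurs in 96.0% of 32851 promoter windows of this length, with a median of 3 matches, and the GATA string in 11.2%. The forkhead string GTAAACA was in neither window and is in 3.65% of all. TATAAA, a form of the TATA box, was in neither window as well and is in 13.6%. All strings were searched on both strands. These matches describe letters only.

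Barcodes were kept from 1000 UMIs and 500 genes upward with up to 10% mitochondrial UMIs. They numbered 1948 in labelled fat P1 and 652 in labelled lung P1, and 7898 and 1436 in P2 of fat and of lung, with 1118642 to 43599072 UMIs per library and medians of 1561 to 5151.5 UMIs per barcode. Any pair of libraries shared 0 or 1 kept barcodes. Tissue genes went against the labels of both P1 libraries: Fabp4, a fatty acid binding protein of fat vessels, stood at 94.2 CPM (UMIs of a gene per 1000000 UMIs of the library) in labelled fat P1 and 12379 CPM in labelled lung P1, and Foxf1, a lung vessel transcription factor, at 716 and 3.58 CPM. These libraries are therefore called labelled fat P1 and labelled lung P1 throughout. Of the gate genes, Pecam1 (CD31), Eng (CD105) and Pdgfra differed between P1 and P2 in the direction of the gates under both labels. RNA of Ly6a (Sca1) went against the gate. It stood at 2423 CPM in labelled fat P1 against 1921 CPM in fat P2, and at 1750 CPM in labelled lung P1 against 205 CPM in lung P2. Within labelled lung P1 the counts per barcode varied little more than random draws from 1 pool, with a median variance of 1.01 times the binomial value at 1000 UMIs over 1547 genes. That median was also near 1 elsewhere, at 1.07 in labelled fat P1, 1.05 in fat P2 and 1.09 in lung P2. In labelled fat P1 the variance of Ptprb was 2.61 times and that of Tek 1.36 times the binomial value, against 1.09 and 0.96 in labelled lung P1. Ptprb and Tek also stood higher in labelled fat P1 (2726 against 707 CPM and 685 against 228 CPM), so their variances are not compared at like levels. Tie1, at like levels (386 and 391 CPM), was closer, at 1.06 and 0.96. Whether the barcodes of labelled lung P1 were single cells was not tested. As a precaution, values of labelled lung P1 are called values of barcodes, and its clusters are not described one by one. Its 4 erythroid markers at 100 CPM or more brought that list to 5815 CPM, and 4 of 12 fibroblast markers were also at 100 CPM or more; their part in its values was not tested.

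Tek was present in all 4 libraries. It stood at 685 CPM (exact Poisson 95% interval 665 to 705) in labelled fat P1, 164 CPM (160.2 to 168) in fat P2, 228 CPM (201 to 258) in labelled lung P1 and 40.7 CPM (34.6 to 47.6) in lung P2. These intervals and those below cover counting error only. The order was labelled fat P1, labelled lung P1, fat P2, lung P2, and no 2 neighbouring intervals overlapped. When each cell was thinned to 2000 UMIs and shallower cells were left out (457, 707, 488 and 658 of the 4 libraries in the order above), Tek was seen in 63.1% of 1491, 27.3% of 7191, 31.1% of 164 and 2.96% of 778 cells. Without thinning the shares were 71.7%, 48.9%, 31.0% and 3.41%. Thus most lung P2 cells, although gated on Tie2 protein, had no Tek UMI at this depth.

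Tie1 was shared by both P1 libraries and nearly missing from P2. It stood at 386 CPM in labelled fat P1, 0.321 CPM (14 UMIs in 5 cells) in fat P2, 391 CPM in labelled lung P1 and 17.8 CPM in lung P2. The Poisson intervals of both P1 libraries overlapped (371 to 401 and 355 to 429). Thinned to 2000 UMIs, 53.1% of cells labelled fat P1 and 51.2% of barcodes labelled lung P1 had the gene. In lung P2 it was 1.54%, and in fat P2 it was 0 of 7191 cells, which allows up to 0.0417% of cells with a UMI at the thinned depth and sets no limit on cells that express the gene. Without thinning 5 of 7898 fat P2 cells (0.0633%) had it, all of them endothelial-like (described below).

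Ptprb was highest in the P1 libraries as well, and in P2 it was higher in lung than in fat, the reverse of Tek. It stood at 2726 CPM in labelled fat P1, 2.96 CPM in fat P2, 707 CPM in labelled lung P1 and 146 CPM in lung P2. Thinned shares were 76.6%, 0.250%, 72.0% and 2.70%. In CPM the P1 libraries were 3.85-fold apart.

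Angpt1 had the opposite distribution. It stood at 374 CPM (355 to 393) in lung P2, 21.7 CPM (20.4 to 23.2) in fat P2 and 6.76 CPM (4.91 to 9.07) in labelled fat P1. No UMI was counted in labelled lung P1, which allows up to 3 counts or 2.68 CPM. At 2000 UMIs 49.0% of lung P2 cells, 4.41% of fat P2 cells and 0.939% of cells labelled fat P1 had it, and 0 of 164 barcodes labelled lung P1. That count allows up to 1.83% of barcodes with a UMI at the thinned depth, and limits detection rather than expression. In the endothelial-like cells of lung P2, 1 of 24 had it (4.17%, median 4435.5 UMIs before thinning), against 46.5% of 508 fibroblast-like cells (median 2575). Without thinning 3 of the 34 endothelial-like cells had it, with 6 UMIs. Whether these UMIs were RNA from other cells was not tested.

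Angpt2 was low everywhere. It stood at 40.7 CPM (34.6 to 47.6) in lung P2, 31.8 CPM (27.6 to 36.4) in labelled fat P1, 23.2 CPM (15.2 to 34.1) in labelled lung P1 and 11.3 CPM (10.3 to 12.3) in fat P2. Only fat P2 was clear of the others, since each of the remaining intervals overlapped its neighbour in this order. Thinned shares ran from 2.02% in fat P2 to 6.94% in lung P2.

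**Figure D1:**
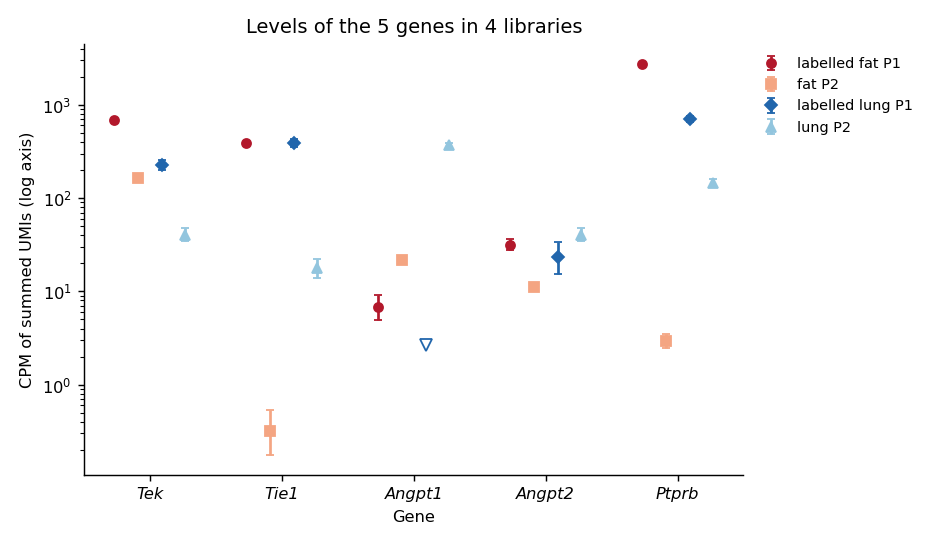
CPM of summed UMIs (log axis) for each gene in the 4 libraries; points are single libraries, bars are exact Poisson 95% intervals (smaller than the point where not seen), and the open triangle is the 3-count limit of Angpt1 in labelled lung P1. Tek, Tie1 and Ptprb are highest in the P1 libraries (Tek 685 and 228 CPM), and Angpt1 is highest in lung P2 (374 CPM).

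Comparing P1 with P2 in the libraries labelled fat, Ptprb and Tie1 were among the widest differences. Ratios are log2 of CPM after 10 CPM are added to each side, and a gene was compared when it reached 50 CPM on either side. Ptprb had a log2 ratio of 7.72, the second highest of 4727 genes, and Tie1 of 5.26. Tek was 4.17-fold higher in CPM, with a log2 ratio of 1.997 that ended just under the 4-fold limit. Of the 5 genes, 3 were compared, 2 passed 4-fold upward in P1 and 0 downward, where 12.4% of all compared genes were higher and 10.1% lower. Angpt1 (log2 ratio -0.92) and Angpt2 (0.98) stayed under 50 CPM on both sides. With the P1 libraries exchanged, the log2 ratio of Tek was 0.45 and that of Ptprb 5.79.

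In the libraries labelled lung, 4 of the 5 genes were compared. Tie1 (log2 ratio 3.85), Tek (2.23) and Ptprb (2.20) passed 4-fold upward in P1, as did 8.45% of 4791 genes. The fibroblast-like cells of lung P2 leave out its 34 endothelial-like cells, and also 584 unnamed cells. Against them alone the log2 ratios were 5.32 for Tie1, 3.29 for Tek and 5.81 for Ptprb, where them means the fibroblast-like cells. Angpt1 was at least 139-fold lower in P1, taking 3 counts for the library without any, and 11.8% of genes were at least 4-fold lower. Angpt2, under 50 CPM in both, had a log2 ratio of -0.61. The log2 ratio of Tek was under the limit, at 1.82, among barcodes with at least 2000 UMIs. With the P1 libraries exchanged, Tek had a log2 ratio of 3.78 and Ptprb of 4.13.

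Between the P1 libraries, no gene of the 5 passed 4-fold. Set as labelled lung over labelled fat, Ptprb had a log2 ratio of -1.93, Tek of -1.55 and Tie1 of 0.02, while 5.28% of 4605 genes were at least 4-fold higher and 5.71% lower. Exchanging the labels turns the sign of each value and nothing else. The receptors thus differed unequally: Tie1 was at the same level within counting error and Tek was 3.00-fold apart.

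Between the P2 libraries, Angpt1 was 17.2-fold higher in lung (log2 ratio 3.60) and Tek 4.03-fold lower in CPM (log2 ratio -1.78). Ptprb also stood higher in lung, with a log2 ratio of 3.59, so that 2 of 3 compared genes were at least 4-fold higher and 0 lower, beside 8.24% and 4.79% of 4323 genes. Over fibroblast-like cells alone (50.9% of lung P2 and 94.9% of fat P2 cells) the log2 ratio of Ptprb was 0.26 and that of Tek -2.86. The difference in Ptprb between these libraries accordingly lay in a small number of endothelial-like cells, described below.

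To find which cells held each gene, cells were clustered within each library on variable genes that left out the 5 genes. Clusters were named from marker lists, and unnamed where the markers did not decide. In labelled fat P1, 8 clusters with 1335 cells were endothelial-like. All 12 endothelial markers stood at 100 CPM or more there, against 0 of 12 fibroblast markers.

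Tek and Ptprb were far lower in 1 of these endothelial-like clusters than in the rest. Led by Fibin, Ednrb (an endothelin receptor known from alveolar capillary cells that face the airspace) and Chst1, it held 424 cells. It had Tek at 100.2 CPM, Ptprb at 96.6 CPM and Tie1 at 291 CPM. The 5 other endothelial-like clusters of at least 50 cells had Tek at 557 to 1209.8 CPM, Ptprb at 2717 to 5265 CPM and Tie1 at 331 to 514 CPM. Across all 9 clusters of this size the highest level was 12.1 times the lowest for Tek and 54.5 times for Ptprb, but 1.77 times for Tie1. Tie1 was thus the even receptor of this library, and Tek and Ptprb were the uneven pair.

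Both Tek and Ptprb were highest in the cluster led by Cxcr4, a chemokine receptor, Esm1, a marker of activated endothelium, and Ivns1abp (248 cells; 1209.8 and 5265 CPM). A cluster led by the interferon-induced genes Igtp and Iigp1 and by Ciita (149 cells) followed with Tek at 1101 CPM and Ptprb at 4419 CPM. Tek and Ptprb ranked the 6 endothelial-like clusters in the same order (Spearman's rho 1, Pearson's r 0.99 of log2 levels, a description over clusters of 1 library). Angpt2 was highest in the clusters led by Grp, Thrsp and Esm1 (209 cells; 56.8 CPM) and by Cxcr4 and Esm1 (54.6 CPM), and lowest, at 14.1 CPM, in the Fibin cluster. The 3 unnamed clusters (575 cells), whose leading genes included Ccl21a, Sftpa1 or Igkc, had Tek at 759 to 988 CPM.

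Angpt1 in labelled fat P1 came mostly from 38 cells. This epithelial-like cluster, led by Ager, Gsn and Cldn18, gave 24 of the 44 Angpt1 UMIs (54.5%) and stood at 96.2 CPM (61.6 to 143). It also carried mural markers (6 of 10 at 100 CPM or more, 3001 CPM in sum) and fibroblast markers (5 of 12, 1462 CPM), whose part in the Angpt1 level was not tested. The 1335 endothelial-like cells gave 16 UMIs, or 3.34 CPM. In the same 38 cells Tek stood at 52.1 CPM and was seen in 2 of 33 cells at 2000 UMIs, against 682 of 1131 endothelial-like cells (60.3%).

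**Figure D2:**
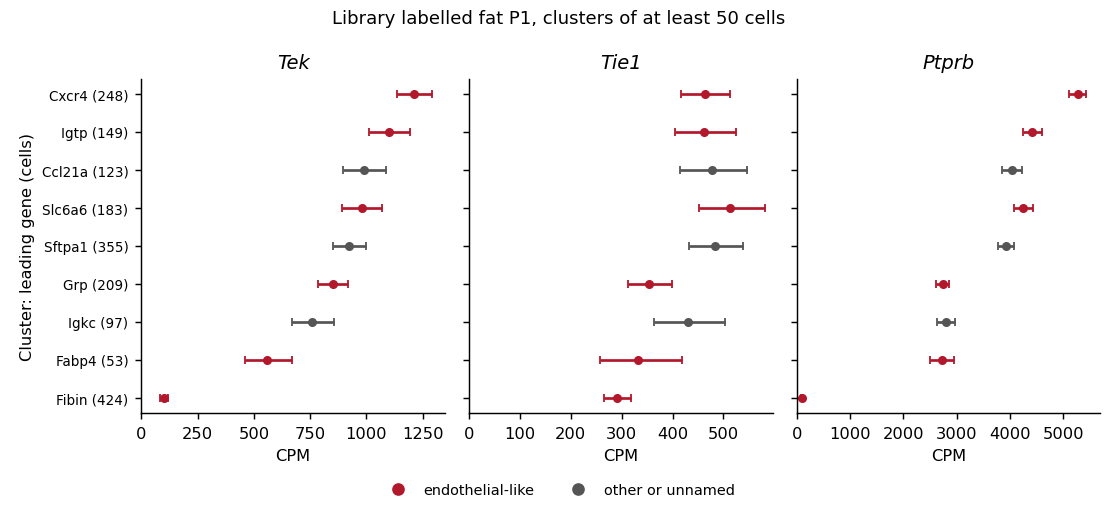
CPM of Tek, Tie1 and Ptprb (linear axes) in the 9 clusters of at least 50 cells of labelled fat P1, named by their leading gene with cell numbers; bars are exact Poisson 95% intervals. The Fibin cluster stands apart for Tek (100.2 CPM) and Ptprb (96.6 CPM) and only little for Tie1 (291 CPM).

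In fat P2 the Tie2 receptor gene was carried by fibroblast-like cells. The 14 fibroblast-like clusters held 7496 cells and 97.3% of the Tek UMIs, at 166 CPM. Tie1 had no UMI there, and Ptprb 28 UMIs or 0.669 CPM. All 14 Tie1 UMIs and 101 of the 129 Ptprb UMIs (78.3%) came from 17 endothelial-like cells, led by Fabp4, Aqp1 and Cd36, in which 11 of 12 fibroblast markers were also at 100 CPM or more. The 3750 fibroblast-like cells with a Tek UMI were set beside the 3746 without for endothelial RNA. Pecam1 stood at 0.542 against 0.726 CPM and Cdh5 at 0.209 against 0.614 CPM, with 13 and 13 UMIs for Pecam1, 5 and 11 for Cdh5. The 12 endothelial markers together went the other way, at 68.5 against 46.0 CPM, so the higher sum with Tek lay in other markers of the list. Robo4 was at 0 in both groups and Emcn only in the cells with Tek.

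Tek was uneven among the fat fibroblast-like clusters, from 20.2 to 257 CPM with a median of 198. It was highest in the cluster led by Mrgprg, Ptgs1 and Pi16 (637 cells; 257 CPM) and high in those led by Akr1c14 (1189 cells; 244 CPM) and by Krtdap, Dmkn and Sbsn (639 cells; 235 CPM). It was lowest in the clusters led by Igfbp2, Hc and Slit2 (738 cells; 20.2 CPM) and by Fmo2, F3 and Cyp2f2 (365 cells; 23.9 CPM). At 2000 UMIs Tek was seen in 38.2%, 39.9% and 40.9% of cells in the former and in 2.94% and 4.45% in the latter, the lowest shares among its fibroblast-like clusters. Pi16 and Dpp4, which mark fibroblasts of the adventitia and of the fat interstitium, tracked it closely over the 14 clusters (r 0.97 for each, of log2 levels). They were chosen after their values were seen, and the clusters share a library.

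The angiopoietins of fat P2 sat in other clusters than Tek. Angpt1 was highest in the clusters led by Fmo2, F3 and Cyp2f2 (61.4 CPM), by Cilp, Thbs4 and Hmcn2 (356 cells; 58.0 CPM) and by Nrep, Aoc3 and Col4a1 (852 cells; 42.6 CPM). It was lowest in the Krtdap cluster (0.774 CPM), where Tek was high. Angpt2 was narrower, at 64.9 CPM in the Igfbp2 cluster, 56.3 CPM in the Fmo2 cluster and 17.0 CPM in the cluster led by H19, Gdf10 and Scg3, and at most 4.46 CPM in the 11 other fibroblast-like clusters. In the H19 cluster 56.4% of cells were among those with the highest doublet scores, and its value was not tested for that. Over the 14 clusters Tek had r -0.87 with Angpt2 and -0.53 with Angpt1, but by rank the values were alike (Spearman's rho -0.59 and -0.58). The median of Angpt2 over these clusters was 0.517 CPM. The ligands had r 0.46 (rho 0.51) with each other.

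**Figure D3:**
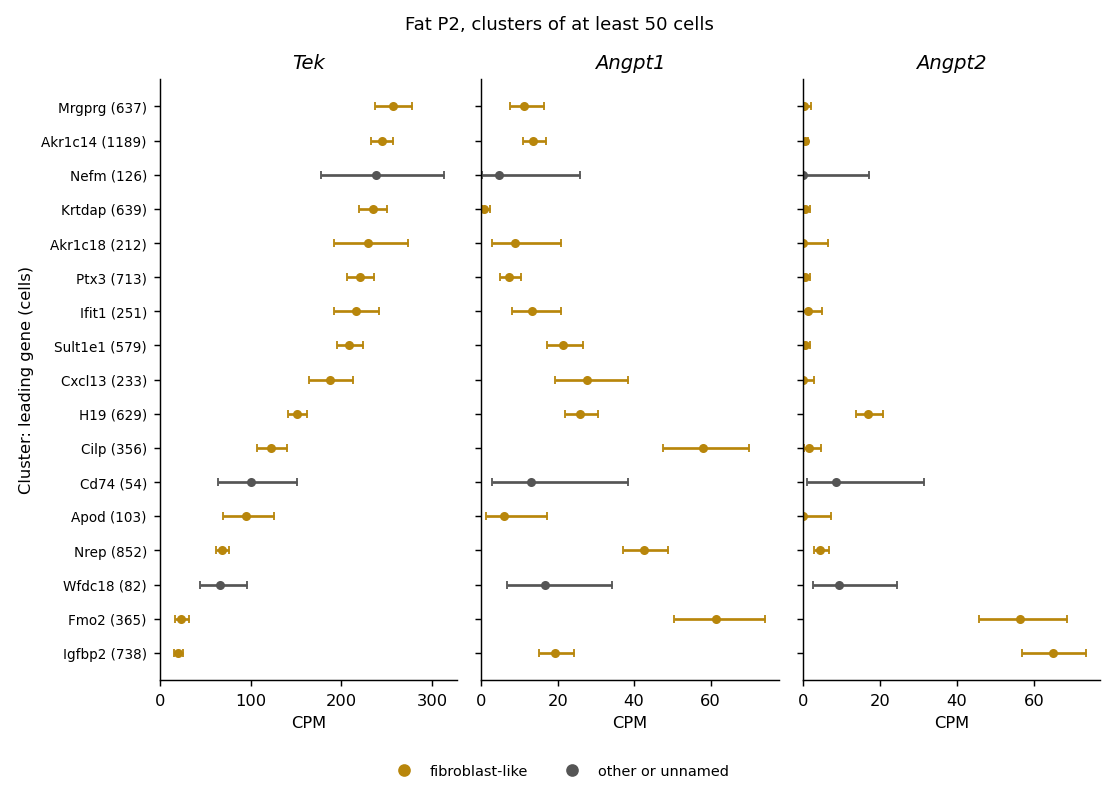
CPM of Tek, Angpt1 and Angpt2 (linear axes) in the 17 fat P2 clusters of at least 50 cells, ordered by Tek; bars are exact Poisson 95% intervals. Angpt2 is high only in the bottom clusters (64.9 and 56.3 CPM), where Tek is lowest (20.2 and 23.9 CPM).

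In lung P2 the receptor and the ligand lay mostly in different clusters. The 34 endothelial-like cells, led by Hpgd, Cldn5 and Adgrf5, held 77.8% of the Tek, 98.6% of the Tie1 and 98.8% of the Ptprb UMIs. They had 11 of 12 endothelial markers at 100 CPM or more (8912 CPM in sum over the list). They also carried epithelial markers (4 of 8, 7151 CPM) and fibroblast markers (5 of 12, 1293 CPM), whose part in these levels was not tested. In these 34 cells Tek stood at 469 CPM, Tie1 at 259 CPM and Ptprb at 2132 CPM. In 731 fibroblast-like cells (50.9% of the library) Tek stood at 14.4 CPM, Tie1 had no UMI and Ptprb stood at 2.78 CPM. The 584 unnamed cells (40.7%) had 10 of 12 fibroblast markers at 100 CPM or more. In those unnamed cells Tek stood at 1.62 CPM and Angpt1 at 460 CPM, so the fibroblast-like values leave out much of the stroma. Of 49 cells with a Tek UMI, 19 were endothelial-like, 26 fibroblast-like, 2 mural-like and 2 unnamed.

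In the 26 fibroblast-like cells with Tek, 11 of 12 endothelial markers were at 0, Pecam1, Cdh5 and Cldn5 among them, and so were Tie1 and Ptprb. The 12 markers together stood at 9.45 CPM there, all of it Ecscr, and at 8.76 CPM in the 705 fibroblast-like cells without Tek, where 5 of 12 were at 0. Those 705 cells held 3 UMIs of Pecam1, 1 of Cdh5, 5 of Cldn5, 6 of Ptprb and 0 of Tie1. With so few UMIs in far more cells, zeros in 26 cells cannot show whether the groups differed. Over the 5 fibroblast-like clusters of at least 50 cells the median level of Tek was 8.24 CPM. The cluster led by Scara5, Dcn and Lum (74 cells) had Tek at 59.8 CPM (35.4 to 94.5), the cluster led by Adh7, Hmcn2 and Lamc3 (99 cells) at 17.7 CPM, and the 3 others at 0 to 8.24 CPM. Pi16 stood at 1492 CPM in the Scara5 cluster and 750.4 CPM in the Adh7 cluster, and at 3.61 to 59.7 CPM in those 3.

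Angpt1 in lung P2 was high in most non-endothelial clusters. It was highest in the fibroblast-like cluster led by Slc13a4, Fat3 and Bmper (230 cells; 701 CPM), and among the next highest were an unnamed cluster led by Hbb-bt, Tmc6 and Gja5 (258 cells; 561 CPM) and the mural-like cluster led by Postn, Cox4i2 and Notch3 (75 cells; 530.1 CPM). The lowest clusters of at least 50 cells were the Adh7 cluster (121 CPM) and the Scara5 cluster (106 CPM), the pair with the most Tek among fibroblast-like cells. Endothelial-like cells stood at 22.9 CPM. Angpt2 was highest in the mural-like cluster (147 CPM, 93.1 to 220.4) and stood at 13.3 to 55.6 CPM in the other clusters of this size and at 45.8 CPM in the endothelial-like cells.

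Gm17473, the antisense neighbour, was highest in the library with the most Angpt1. It had 57 UMIs (14.7 CPM) in lung P2 against 0 to 12 UMIs in the other libraries. At 2000 UMIs it was seen in 3.67% of the 381 lung P2 cells with Angpt1 and in 1.01% of those without.

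**Figure D4:**
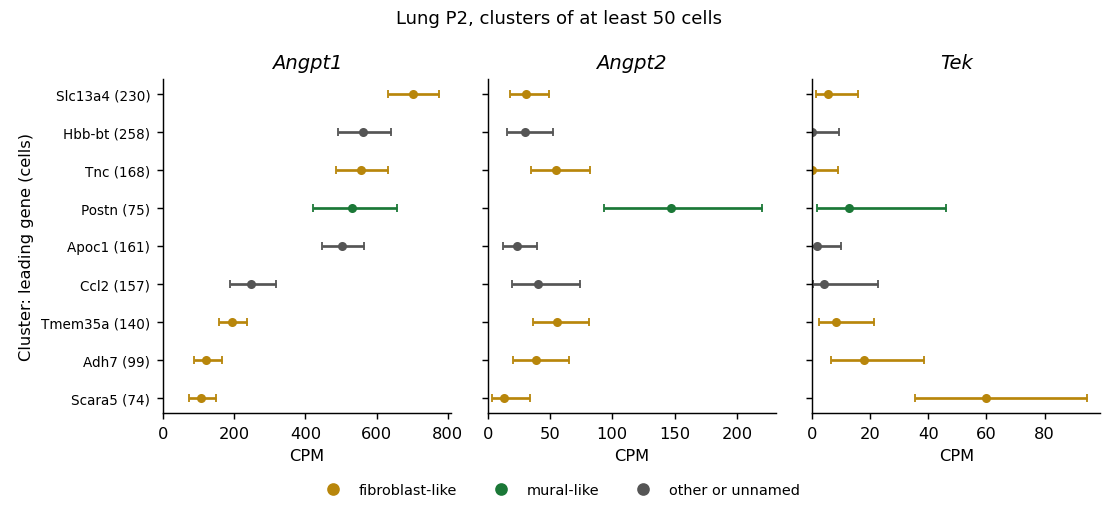
CPM of Angpt1, Angpt2 and Tek (linear axes) in the 9 lung P2 clusters of at least 50 cells, ordered by Angpt1; bars are exact Poisson 95% intervals. Tek is highest in the bottom cluster (59.8 CPM), where Angpt1 is lowest (106 CPM), and Angpt2 is highest in the mural-like cluster (147 CPM).

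Whether receptor and ligand met in the same cell was counted at 2000 UMIs, beside the number that the product of both shares gives. In fat P2 Tek and Angpt1 were seen together in 52 of 7191 cells, where the product gives 86.4, a ratio of 0.60 (0.45 to 0.79). Angpt1 was seen in 2.65% of the cells with Tek and 5.07% of those without. Taking the product within each cluster brought the ratio to 0.77 (0.58 to 1.02). Over all 7898 cells without thinning it was 0.96.

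Tek and Angpt2 met less often in fat P2, in 7 cells where the product gives 39.5, a ratio of 0.18 (0.07 to 0.36). Within clusters the ratio was 0.57 (0.23 to 1.18), and unthinned over all cells it was 0.45. In lung P2 Tek and Angpt1 met in 2 cells where the product gives 11.3, a ratio of 0.18 (0.02 to 0.64), and within clusters 0.57 (0.07 to 2.05). The ligands themselves met in 27 lung P2 cells, close to the 26.4 of the product.

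In labelled fat P1 the ratios over all cells were above 1 for Tek with Ptprb, Tie1 and Angpt2, and for Tie1 with Angpt2. Their intervals cover counting error of the cells with both genes only and take the product as known. Cells of 1 library are not replicates, so an interval clear of 1 is no test. Tek and Ptprb were in the same cell in 890 of 1491 cells, where the product gives 721, a ratio of 1.23 (1.16 to 1.32), which was 1.02 within clusters. Tek and Tie1 met in 552 cells against 499, a ratio of 1.11 (1.02 to 1.20), and 1.04 (0.95 to 1.13) within clusters. Tie1 and Angpt2 met in 62 cells against 46.2, a ratio of 1.34 (1.03 to 1.72), and 1.31 (1.002 to 1.68) within clusters. Tek and Angpt2 met in 64 cells against 54.9, a ratio of 1.17 (0.90 to 1.49) whose interval spans 1. In lung P2, Tek and Tie1 met in 7 cells and Tek and Ptprb in 11, where the products give 0.355 and 0.621; within clusters the ratios were 1.17 and 1.22.

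**Figure D5:**
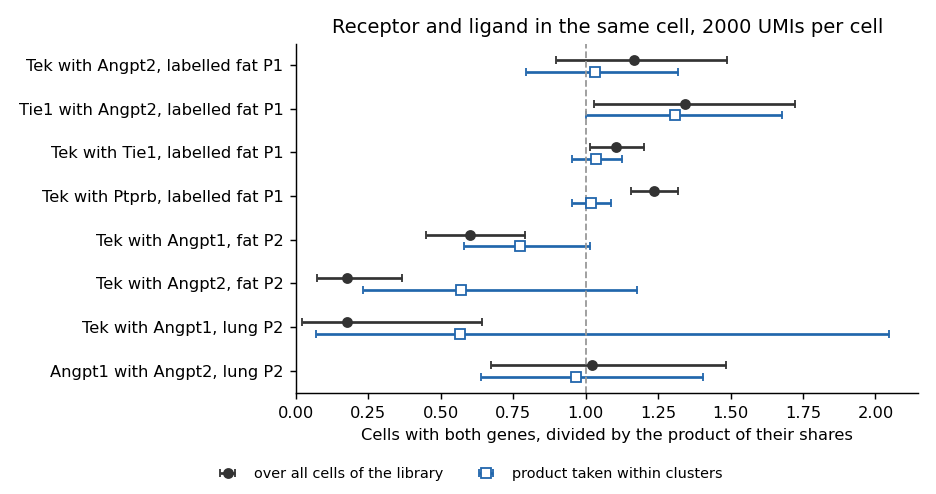
Cells with both genes divided by the number from the product of their shares, at 2000 UMIs per cell, over all cells of a library (filled) and with the product taken within clusters (open); bars are exact Poisson 95% intervals of the number of cells with both. The Tek pairs with Angpt1 and Angpt2 in P2 lie left of the dashed line at 1 over all cells (0.60 and 0.18 in fat), and their within-cluster intervals reach it.

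Genes with the pattern most like each member were sought over 42 clusters of at least 50 cells, among 8348 genes that reached 50 CPM in any of them. Of these clusters 7 were made of the barcodes labelled lung P1. For Tie1 these were Ushbp1 (r 0.999), Flt1, Egfl7, Pecam1 and Sox18, and for Ptprb Cd93 (r 0.99), Sema3g, She, Adgrl4 and Sox7. Tek had lower values, led by Npr1 (r 0.93), a natriuretic peptide receptor, then Hs3st1, Ramp2, Arl4d and Sec14l1. For Angpt1 they were Ism1 (r 0.94), H6pd, Rnf150, Cdc42bpg and Prdm6. For Angpt2, whose pattern had no close match, Agtpbp1 (r 0.74), Agpat5, Rasa3, Gnb4 and Extl3 came first. These orders depended on the clusters of labelled lung P1. Over the 35 clusters without it, a repeat added after the data were seen, Mapk12 came first for Tek (r 0.95), Arhgef15 for Tie1 (r 0.999), Rnf150 for Angpt1 (r 0.95), Gpihbp1 for Ptprb (r 0.995) and Pear1 for Angpt2 (r 0.85). Of the 5 genes named for each member, 4 remained among the first 5 for Tek, 2 for Tie1, 2 for Angpt1, 2 for Angpt2 (Gnb4, r 0.83, and Agpat5, r 0.82) and 1 for Ptprb (Cd93). Within the fat P2 fibroblast-like clusters Tek was most like Galnt16, Fndc1, Anxa3, Lrrn4cl and Stxbp6 (r 0.99 to 0.98). Clusters of 1 library share its depth and preparation, and the r values are descriptions.

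Around the 5 genes, 6 lists of the pathway were followed, counting genes that reached 20 CPM on either side. The lists were not counted again with the P1 libraries exchanged. Among angiopoietin-related secreted proteins 3 of 4 measured were at least 4-fold lower in P1 of the libraries labelled fat, against 6.85% of all 8143 genes. They were Angptl2 (5.99 against 298 CPM), Svep1, an extracellular protein that binds Tie1 (1.08 against 107 CPM), and Angptl1 (0 against 46.5 CPM, at least 101-fold lower). The list's median log2 ratio was -2.95, and -3.83 with Angptl1 at its bound, beside 0.34 for all genes. For the lung labels Svep1 (8.05 against 282 CPM) and Angptl2 (18.8 against 127 CPM) were again lower, 2 of 3 measured, where 7.39% of 8376 genes were.

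Of the transcription factors known to act on Tie and angiopoietin genes, 8 of 12 measured in the libraries labelled fat passed 4-fold upward in P1 and 0 downward (8.02% of all genes passed upward), with a median log2 ratio of 2.94 beside 0.34 for all genes. The remaining 4, Elf1, Elf2, Klf2 and Foxo1, had log2 ratios of 0.37 to 0.82. Epas1, a hypoxia-inducible factor, stood at 3229 against 22.2 CPM and Gata2 at 514 against 0.138 CPM. Ets1 stood at 470.0 against 11.8 CPM, and Erg, an ETS factor of endothelium, at 46.2 against 0.0459 CPM. For the lung labels 3 of 11 were higher, among them Klf2, a flow-responsive factor, at 1825 against 107 CPM, where 5.23% of all genes were. The median over these 11 was 1.22 beside -0.16 for all genes, and Foxo1 had a log2 ratio of -0.29.

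Of the partners of Ptprb and related phosphatases, 5 of 6 were at least 4-fold higher in P1 of the libraries labelled fat, where 8.02% of all genes were (Cdh5, VE-cadherin, 2098 against 1.86 CPM, and Kdr, a VEGF receptor, 1308 against 13.5 CPM). For the lung labels 4 of 5 were higher, beside 5.23% of all genes, with Kdr at 742 against 49.0 CPM. Of 16 adaptors and effectors of Tie2 measured in the libraries labelled fat, 3 were at least 4-fold higher (Grb14, Mapk3 and Ptk2) and 0 lower, beside 8.02% and 6.85% of all genes, with a median log2 ratio of 0.76. These 3 depended on which P1 library was used. In labelled lung P1 they stood at 2.68, 317 and 88.5 CPM, against 2.96, 74.8 and 38.7 CPM in fat P2. In the libraries labelled lung 2 of 16 were higher and 1 lower, beside 5.23% and 7.39% of all genes. Klf2 and Nos3, the endothelial nitric oxide synthase (167 against 2.06 CPM), were higher and Pik3r1, a PI3-kinase subunit, lower (32.2 against 337 CPM). In labelled fat P1 Klf2 stood at 1338 CPM, Nos3 at 30.3 CPM and Pik3r1 at 125 CPM.

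Integrins that bind angiopoietins showed 0 of 5 past 4-fold in the libraries labelled fat, where 8.02% of all genes were higher and 6.85% lower. In those labelled lung 1 of 4, Itgb5 at 46.5 against 239 CPM, was lower, beside 7.39% of all genes. Genes of activated or tip endothelium were 5 of 7 higher and 2 lower in the libraries labelled fat, against the same 8.02% and 6.85%, for example Pdgfb (318 against 0.252 CPM) and Adm (0.307 against 88.2 CPM). In the libraries labelled lung 3 of 7 were higher, beside 5.23% of all genes: Esm1 (221 against 1.03 CPM), Pdgfb and Dll4.

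Between the P2 libraries few pathway genes passed 4-fold, where 5.06% of 7920 genes were higher in lung and 2.90% lower. Of the angiopoietin-related proteins 1 of 4 was higher and 1 lower, of the Ptprb partners 2 of 5 were higher, and of the transcription factors 2 of 9 were higher and 1 lower. The 2 partners were Cdh5 (81.7 against 1.86 CPM) and Jup. Of 317 Cdh5 UMIs in lung P2, the 705 fibroblast-like cells without Tek held 1 and the 26 with Tek 0. The lists were not counted in fibroblast-like cells alone. Among the Tie2 adaptors 0 of 15 were higher and 1 lower, and 0 of 5 integrins and 0 of 2 tip genes passed. Angptl4 stood at 167 CPM in lung against 30.2 CPM in fat, and Angptl1 at 1.55 against 46.5 CPM. Klf2, a member of both the factor and the adaptor lists, was lower in lung P2 (107 against 830 CPM), and Epas1 (263 against 22.2 CPM) and Ets1 (119 against 11.8 CPM) were higher. Between the P1 libraries 3.51% of 7900 genes were at least 4-fold higher and 3.66% lower in the one labelled lung, and 1 of 8 tip genes and 2 of 12 transcription factors were lower. The 1 angiopoietin-related gene measured, Angptl4, was higher (82.2 against 3.69 CPM). Of 17 Tie2 adaptors 1 was higher (Nos3) and 1 lower (Grb14), and 0 of 4 integrins and 0 of 6 Ptprb partners passed. Apln, the apelin ligand of tip cells, stood at 8.94 CPM in labelled lung P1 and 146 CPM in labelled fat P1, Epas1 at 625 and 3229 CPM and Gata2 at 91.2 and 514 CPM.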

How the data were processed

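Deposited counts (UMIs per gene and barcode, 10x 3' libraries) were used without normalization; the authors made them with Cell Ranger 3.1.0 on mm10, per the submitters' processing notes. The gene annotation is not given in the sources used here. Gene entries under 1 symbol were added up (35 symbols). Barcodes were filtered as stated in the report and doublets were kept. CPM is the UMIs of a gene per 1000000 summed UMIs; ratios add 10 CPM. Clusters used scanpy 1.11.5 (2000 variable genes without the 5 genes, 30 components, 15 neighbours, Leiden resolution 1). Clusters were named after the list whose markers most often reached 100 CPM, given 3 such markers. Those low in UMIs, or with top 10 genes pointing to another list, were not named. CPM have exact Poisson and shares exact Clopper-Pearson 95% intervals. No test was run, each group being 1 library.

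The members and lists were chosen with earlier results of these data known, and the naming rule once counts were seen. Genes named are the 5 members, up to 4 genes of each list with the largest ratios, the 5 genes most like a member, the 3 leading genes of a described cluster, and gate and tissue genes; Pi16, Dpp4, Gm17473 and Mcph1 were chosen after their values were seen. Some genes and results that this rule names are not reported here.

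Counts simulated with counting error only, with 50 genes per fold size, tested the 4-fold rule. It called 0% of genes changed 1- or 2-fold, which was near certain beforehand, since the changed genes stood at 50 CPM or more and only counting error was added. Differences between libraries beyond counting error were not simulated. The simulation therefore cannot show how often 4-fold calls between the real libraries are right. Of genes changed 8-fold it called 88% in the libraries labelled fat (4071 genes compared), 76% in those labelled lung (3497), 76% between the P1 libraries (3506) and 86% between the P2 libraries (3873). The expected recovery for this simulation was revised after 2 earlier pass criteria failed: the added 10 CPM puts 8-fold genes near 50 CPM under the rule, so that 88%, 80%, 76% and 80% truly pass it, and counting error decides those close to it.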

Additional observations from a re-analysis of the deposited data

Results flagged for a closer look

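Angpt2 differed in opposite directions between populations in the 2 tissues as labelled: its log2 ratio of P1 over P2 was 0.98 in the libraries labelled fat and -0.61 in those labelled lung. The difference was not tested, since each group is 1 library, and Angpt2 was under 50 CPM in all 4. With the P1 libraries exchanged the ratios were 0.64 and -0.28, so the signs stayed the same. In the exchanged lung pairing the Poisson intervals overlapped, at 27.6 to 36.4 CPM in labelled fat P1 and 34.6 to 47.6 CPM in lung P2. The direction in that pairing was therefore not clear of counting error.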

How the results depend on the processing

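No paired analysis was possible because the labels carry no replicate numbers and each group has 1 library; for the same reason no library could be left out. Of 150 log2 ratios of the 5 genes under alternatives, 139 stayed on the same side of 4-fold, and 2 changed sign, neither past 4-fold: Tie1 between the P1 libraries went from 0.02 to -0.06 both as a mean over cells and at 2000 UMIs or more. The log2 ratio of Tek in the libraries labelled fat passed 4-fold with 1 CPM added (2.05), as a mean over cells (2.10) and without doublets (2.01), and in those labelled lung missed it at 2000 UMIs or more (1.82). Between the P1 libraries Angpt1 reached -2.96 with 1 CPM added and Ptprb -2.17 as a mean over cells. Between the P2 libraries Tek reached -2.18 under TMM scaling, -2.75 as a mean over cells and -2.86 in fibroblast-like cells, Tie1 3.83 with 1 CPM added, and Ptprb fell to 0.26 and Tie1 from 1.43 to 0 in fibroblast-like cells.

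TMM scaling moved the median of all genes by -0.44 (libraries labelled fat) and -0.41 (P2 libraries) and by under 0.1 elsewhere, and left the direction of each of the 20 ratios. Under it the genes past 4-fold split into 451 higher and 642 lower instead of 586 and 479 in the libraries labelled fat, and 254 and 343 instead of 356 and 207 between the P2 libraries.

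For cells with both genes over the product of shares, Tek with Angpt1 in fat P2 was 0.82 at 1000 UMIs, 0.96 unthinned and 0.80 at 2 or more UMIs unthinned. Tek with Angpt2 there was 0.45 and 0.43 in the latter settings and 0.57 within clusters. Tek with Angpt1 was 0 in lung P2 at 1000 UMIs and 0 in labelled fat P1 at 2 or more UMIs.

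At resolution 0.5 and 2 the highest cluster of labelled fat P1 had Tek at 1065 and 1300.4 CPM and Ptprb at 4563 and 5941 CPM, and the lowest had Ptprb at 68.8 CPM at resolution 2. At resolution 0.5 the highest lung P2 cluster had Angpt1 at 594 CPM and the lowest fat P2 cluster 0 CPM; at resolution 2 the lowest fat P2 cluster had Tek at 15.2 CPM. The lowest-cluster and within-cluster values were added after the data were seen. The cause of these shifts was not tested. Depth limits labelled lung P1 most, where 164 barcodes reached 2000 UMIs.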

Other observations

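Agpat5, an acyltransferase gene on chromosome 8 from 18846277 to 18891361 next to Angpt2, was among the genes whose pattern was most like that of Angpt2, with r 0.73 over 42 clusters and 0.82 over the 35 clusters without labelled lung P1. Mcph1, which overlaps Angpt2 on the other strand, stood at 3.58 to 9.02 CPM in the 4 libraries and was not among them. Within fat P2 the genes most like Angpt1 over the 14 fibroblast-like clusters were Ms4a4d, Inmt, Gas6 and Svep1, the last (r 0.90) a binding partner of Tie1. These clusters share 1 library, and the r values are descriptions.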
